A study of Mus musculus with 6 samples.

Results

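Binding of p53 before and after irradiation was compared gene by gene in splenic non-B cells. The comparison used 2 peak lists, each from 1 p53 ChIP-seq library. The mock list held 712 peaks and the list after irradiation (IR) held 21400, out of 48115 peaks in the 5 lists of the series. Every peak was given to the protein-coding gene with the nearest transcription start site on mm9 (GENCODE vM1). A gene was then placed in 1 of 4 classes, by whether it had a peak in mock and IR, in IR only, in mock only, or in neither list. Of 22380 protein-coding genes, 10079 had at least 1 peak.

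Both libraries came from Trp53+/+ mice of the C57/Bl6 strain, 8 weeks old at collection. The IR animals had received 7 Gy to the whole body 4 h before the spleen was taken, and the mock animals were not irradiated. Non-B cells were the spleen cells left after B220-positive cells had been removed on magnetic beads, a T cell-enriched mixture that also holds other leukocytes. Chromatin was pooled over animals matched for age and sex and immunoprecipitated with the NCL-p53-CM5p antibody. The mock and IR lists of splenic B cells, and the 83 peaks of irradiated total spleen from Trp53-/- animals, which show what the antibody brings down without p53, served only for reference. No library was replicated, so differences carry no replicate error, and each interval given is a 95% Wilson interval that covers counting error only.

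p53 is a transcription factor that Mdm2 and Mdm4 hold at a low level in unstressed cells. After DNA damage it is released from this restraint, accumulates, and binds DNA as a tetramer. Its consensus element is a pair of decamers, each with a fixed C and a fixed G at its core. Its best known targets stop the cell cycle, trigger apoptosis, repair DNA, or restrain p53 itself, and splenic lymphocytes are among the most radiosensitive cells of the body.

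Elements found under the highest peaks of the 2 main classes are shown first, because sequence was not used to place genes in classes. Not every high peak had one within 300 bp of its midpoint. Among the 12 named genes at the top of each class, none was found at 2 in IR only (Mdm4 and Tnip3). The mock peak of 5 genes in mock and IR (Bbc3, Klhdc4, Sp1, Elmo1 and Zfp958) also had none. At the IR peak of Elmo1 there was one with 0 mismatches, at chr13:20227242-20227261. It lies inside the mock peak of Elmo1 but outside the window scanned around the mock midpoint. Each element printed below is the best match within 300 bp of the peak midpoint. The mock peak was used for the 5 genes from Ier5 to Pnrc1 and the IR peak for all others. Elements are written 5′ to 3′ on the plus strand of mm9 (NCBIM37), with the core C and G of each decamer in capitals. The first 6 belong to genes with a peak in IR only, the next 5 to genes with a peak in mock and IR, and the last 4 to known p53 targets.
Spink4: gggCttGcttggaCttGccc
Ppm1h: gaaCatGttcatgCatGttc
Ppp1r1c: gaaCatGtctgaaaCatGcct
Thrb: ggtCatGccagggCatGcct
Eya2: gaaCatGttggaaCatGtcg
Tmem168: agaCttGtcagggCaaGgtt
Ier5: agaCatGcccaggCatGtct
Rhoq: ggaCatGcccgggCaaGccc
Mtmr10: gggCatGccaggaCatGcct
Aff1: caaCatGtctgagCatGcct
Pnrc1: tatCatGcctgggCatGtct
Cdkn1a: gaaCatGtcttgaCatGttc
Zmat3: agaCatGcctgggCttGttt
Mdm2: ggaCatGtttgtaCatGttt
Ddit4: agaCtaGtccaggCaaGtct

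The Spink4, Ier5, Rhoq, Zmat3 and Ddit4 elements had 0 mismatches to the consensus. The Ppm1h, Mtmr10, Aff1, Cdkn1a and Mdm2 elements had 1 mismatch, and the Thrb, Eya2, Tmem168 and Pnrc1 elements had 2. The Ppp1r1c element had 0 mismatches and a spacer of 1 base between its decamers. In the class with a peak in IR only they lay at chr4:40845876-40845895 (Spink4), chr10:122281413-122281432 (Ppm1h), chr2:79525316-79525336 (Ppp1r1c), chr14:18816152-18816171 (Thrb), chr2:165614555-165614574 (Eya2) and chr6:13526828-13526847 (Tmem168). In the class with a peak in mock and IR they lay at chr1:156903454-156903473 (Ier5), chr17:87356342-87356361 (Rhoq), chr7:71472112-71472131 (Mtmr10), chr5:104161783-104161802 (Aff1) and chr4:33360643-33360662 (Pnrc1). The known targets had theirs at chr17:29227873-29227892 (Cdkn1a), chr3:32263253-32263272 (Zmat3), chr10:117154792-117154811 (Mdm2) and chr10:59411250-59411269 (Ddit4). These are chosen matches, and the shares over all peaks are given further on.

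The gene classes were very unequal in size. A peak in mock and IR was assigned to 499 genes (2.23% of all protein-coding genes), a peak in IR only to 9561 genes (42.7%) and a peak in mock only to 19 genes (0.0849%). The remaining 12301 genes (55.0%) had no peak in either list. Of the 518 genes with a mock peak, 499 also had an IR peak, or 96.3% (94.3 to 97.6%). Unnamed gene models (Gm and Rik symbols) made up 44 of the genes in mock and IR, 879 of those in IR only and 5 of those in mock only. When only promoter peaks were kept (5 kb upstream to 2 kb downstream of a start site), 181 genes (0.809%) were in mock and IR, 7229 (32.3%) in IR only and 10 (0.0447%) in mock only.

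Some properties of the lists moved with these counts. The narrowest peak was 53 bp in mock and 174 bp in IR, and the lists hold no read totals, so the depth of the libraries is unknown. Absence from a list is not absence of binding. When the IR list was reduced to its 712 highest peaks, the length of the mock list, 242 genes were in mock and IR, 408 in IR only and 276 in mock only, and the share of mock genes with an IR peak was 46.7%. The share of genes with a peak in IR only also rose with the territory of a gene, the stretch of chromosome closest to its start sites, from 34.6% in the quintile with the smallest territories (median 11.0 kb) to 50.4% in the largest (median 263 kb). The part of these differences in the class counts was not tested. Stronger binding in every cell and binding in more of the cells cannot be told apart in these mixtures.

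Genes already bound in mock gained further sites. Genes in mock and IR had a median of 4 IR peaks (mean 5.17, maximum 39), against 1 (mean 1.97, maximum 37) for genes in IR only. At least 5 IR peaks were assigned to 43.7% of the former (39.4 to 48.1%) and 7.26% of the latter (6.76 to 7.80%). The median territory was 93.2 kb for genes in mock and IR, 55.3 kb for those in IR only and 45.5 kb over all genes. Of the 2581 IR peaks of genes in mock and IR, 2066 overlapped no mock peak, or 80.0% (78.5 to 81.5%), and 413 of the 499 genes had at least 1 such new site. The mock site itself was kept in most of them, since 463 of the 499 genes had a mock peak that overlapped an IR peak. The highest IR peak of the gene lay at a mock site in 351 of 499, or 70.3% (66.2 to 74.2%).

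The value deposited for each peak was taken, from its range, to be −log10 of a p-value, a unit that was not checked. It was used only to rank peaks within a list, where rank 1 is the highest. Mock sites stood at the top of the IR ranking. They accounted for 84.0% of IR peaks ranked 1 to 25 (65.3 to 93.6%), 48.0% of those ranked 101 to 250 (40.2 to 55.9%), 8.80% of those ranked 501 to 1000 (6.62 to 11.6%) and 0.623% of those ranked 10001 to 21400 (0.494 to 0.785%). Counted by gene rather than by site, the share levelled off at 11.0% in the last bin, because weak new peaks were also assigned to genes with a mock peak. The highest IR peak of a gene had a median percentile of 96.2 in the IR list for genes in mock and IR and 64.7 for genes in IR only.

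**Figure D1:**
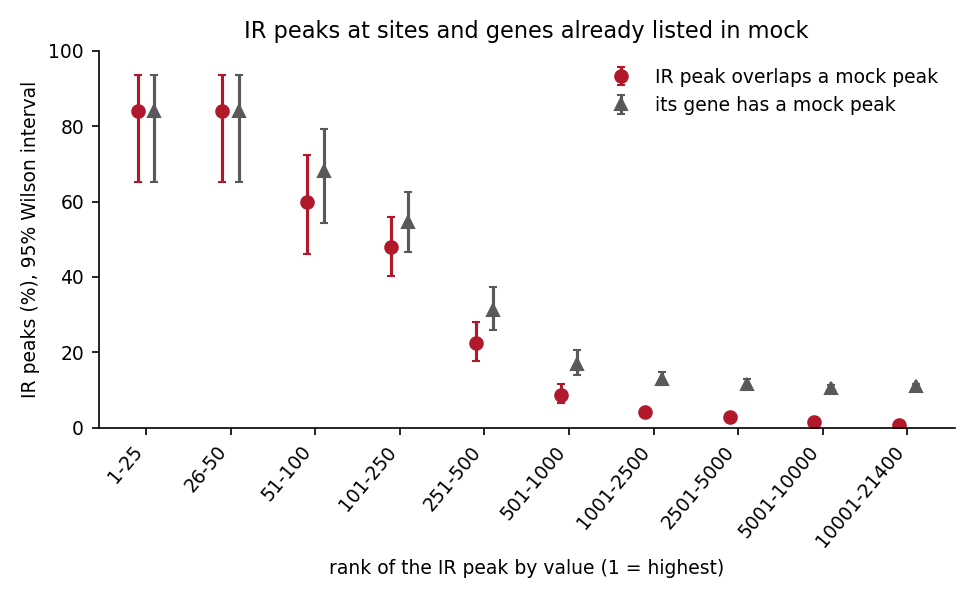
Share of IR peaks (%, vertical axis) that overlap a mock peak (circles) or whose gene has a mock peak (triangles), by rank of the IR peak (horizontal axis, 1 is the highest value), with 95% Wilson intervals. Both shares fall from 84.0% in the first bin, to 0.623% by site and 11.0% by gene in the last.

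The 12 named genes with the highest mock peak all kept a high rank after irradiation. Bbc3, which encodes the pro-apoptotic protein Puma, had the highest mock peak of all, with a value of 165 in mock and 488 in IR (rank 44). Ier5, an immediate early gene, followed with 154 in mock at a site 43411 bp downstream of its start, and 488 in IR (rank 45). Sp1, which encodes a general transcription factor, had 129 in mock and 602 in IR (rank 3), the IR midpoint lying -508 bp from its start, where a negative distance is upstream. Pnrc1 had 127 in mock and 564 in IR (rank 11) in an intron of the gene. Dnm3, which encodes a dynamin, had 102 in mock and 523 in IR (rank 31) at its start. The lowest IR rank in this set was that of Klhdc4 (rank 270), a kelch-domain gene whose mock peak had a value of 129 and lay in an intron annotated to Gm20388.

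Aff1 encodes a subunit of the super elongation complex and had 128 in mock and 490 in IR (rank 41) in its own intron. Mtmr10, a myotubularin-related gene, had 129 and 407 (rank 92). Myo1g, a myosin of blood cells, had 114 and 421 (rank 86), with 5 peaks in each list. Rhoq, which encodes a small GTPase, had 106 and 378 (rank 110), with 4 peaks in each list. Elmo1, which acts with Dock proteins in cell migration and engulfment, had 106 and 353 (rank 132), in an intron and with 15 IR peaks against 2 in mock. Zfp958, a zinc finger gene, had 102 and 292 (rank 200).

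The 12 named genes in IR only with the highest IR peak were led by Spink4, a Kazal-type protease inhibitor gene, with a value of 552 (rank 17) at -20934 bp from its start and outside any protein-coding gene. Mdm4, whose product restrains p53 together with Mdm2, had 552 (rank 18) in its own intron, 5337 bp downstream of its start, and 5 IR peaks in all. Npffr1, a neuropeptide receptor gene, had 548 (rank 21) at -6585 bp, with 0 mismatches in an element whose decamers are 11 bases apart. Tmem168 had 507 (rank 35) at 30909 bp from its start. Lpin1, which encodes a phosphatidate phosphatase, had 496 (rank 39), but this peak lay 215167 bp from the start, and the gene is only the nearest one. Its element at chr12:16381315-16381334 had 3 mismatches.

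Several of these genes were named by distance alone. The Eya2 peak, 470 in value (rank 58), lay in an intron of Zmynd8, which encodes a reader of histone marks, and the Thrb peak, also 470 (rank 59), lay in the thyroid hormone receptor gene itself, 2076 bp from a start. Mrps31, a mitochondrial ribosomal protein gene, had 454 (rank 67) at 22770 bp. Ppm1h, a protein phosphatase gene of the family that includes the p53 target Ppm1d, had 442 (rank 76) in its own intron and 11 IR peaks. Tnip3, an inhibitor of NF-kB signalling, had 440 (rank 77) at -25893 bp, Zscan20 had 439 (rank 79) at 14120 bp and Ppp1r1c, a phosphatase 1 inhibitor gene, had 438 (rank 80) at -22726 bp. None of the 12 had a mock peak in non-B cells. In the mock list of B cells, Mdm4, Thrb and Tnip3 each had 1 peak and Mrps31 had 2.

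Genes with the most IR peaks had large territories and include regulators of lymphocyte differentiation. Foxp1, a forkhead factor of lymphocyte development, had 39 IR peaks over a territory of 793 kb, of which 1 lay at a mock site, and its highest peak (346, rank 135) lay in an intron of Eif4e3. Btg1, an antiproliferative gene of the family of the p53 target Btg2, had 37 over 753 kb and no mock peak, with the highest (216, rank 331) in its own UTR. Ets1 had 33 over 1002 kb. Bach2, a repressor that restrains lymphocyte effector differentiation, had 30 over 469 kb and no mock peak.

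Among genes in IR only, these were followed by Tgfbr2, a receptor for the cytokine TGF-beta, with 24 IR peaks, the highest of them (233, rank 296) at -151951 bp over an element with 0 mismatches at chr9:116236367-116236386. Tbl1xr1, a corepressor subunit gene, had 23 over 1983 kb, of which 22 lay over 50 kb from its start. Cblb, a ubiquitin ligase that limits T cell activation, had 21, and Tmsb4x, an actin-binding peptide gene, also had 21. Akap13, a kinase-anchoring gene in mock and IR, had 24 IR peaks. The median value of the IR peaks of these genes lay between 15.2 (Tmsb4x) and 27.3 (Tgfbr2), around the 19.4 of all IR peaks.

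Within the class in mock and IR, the genes with the largest differences in percentile between the lists are given as a description. Their choice fixes the direction, and the highest peaks in mock and IR need not be the same site. Tex15, a gene of meiotic recombination, had the lowest mock peak of all (rank 712, value 5.08) and rank 111 (378) in IR. Cd244, a receptor of NK and T cells, had mock rank 711 and IR rank 399, Qpct 700 and 344, and Cdh23 698 and 628, where the mock list has 712 ranks and the IR list 21400. In the other direction, Bri3bp had mock rank 197 (16.4) and IR rank 21078 (6.64), Glis2 131 and 19052, Igf2bp3 98 and 17007, and Kpna1 127 and 13963. Each of these last 4 genes had 1 mock and 1 IR peak.

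The 19 genes in mock only were spread over the mock ranking, with a median percentile of 55.5 in that list. The named genes with the highest values were Pou4f1 (25.6, rank 104 of the mock list), Cd209a (25.6, rank 105), a dendritic cell lectin gene, Ly6k (24.1), Il31ra (17.4), Zfp710 (15), Il1rapl1 (12.2), Rax (11.3) and Zfp143 (11.1). The 21 mock peaks of these 19 genes were 53 to 154 bp wide. At 4 of the 21, among them that of Zfp143, the site was in the IR list too, but the IR peak there was assigned to a neighbouring gene. The neighbour was AA474408 at Zfp143 (IR value 31.1), Nme2 at Nme1 (149), Wdr46 at H2-Ke2 (337) and Ddx54 at 1110008J03Rik (23.0). The other 17 overlapped no IR peak. Of these 17, 12 overlapped a peak of the B cells mock list and 2 a peak of the B cells IR list. None of the 21 held an unsplit element, a share of up to 15.5% being allowed by the interval, and 9.52% of the same windows moved by 10 kb held one.

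Sites gained by the 2 main classes differed in position. Among new IR peaks of genes in IR only, 39.3% lay up to 1 kb from a start site (38.6 to 40.0%), against 17.5% of new IR peaks of genes in mock and IR (15.9 to 19.2%) and 25.4% of IR peaks at a mock site (21.9 to 29.4%). Between 5 and 50 kb the shares were 34.4, 45.8 and 47.0%. The highest IR peak of the gene lay up to 1 kb from a start in 52.3% of genes in IR only (51.3 to 53.3%) and in 23.6% of genes in mock and IR (20.1 to 27.6%). The nearest-start rule makes these distances depend on how closely genes lie.

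**Figure D2:**
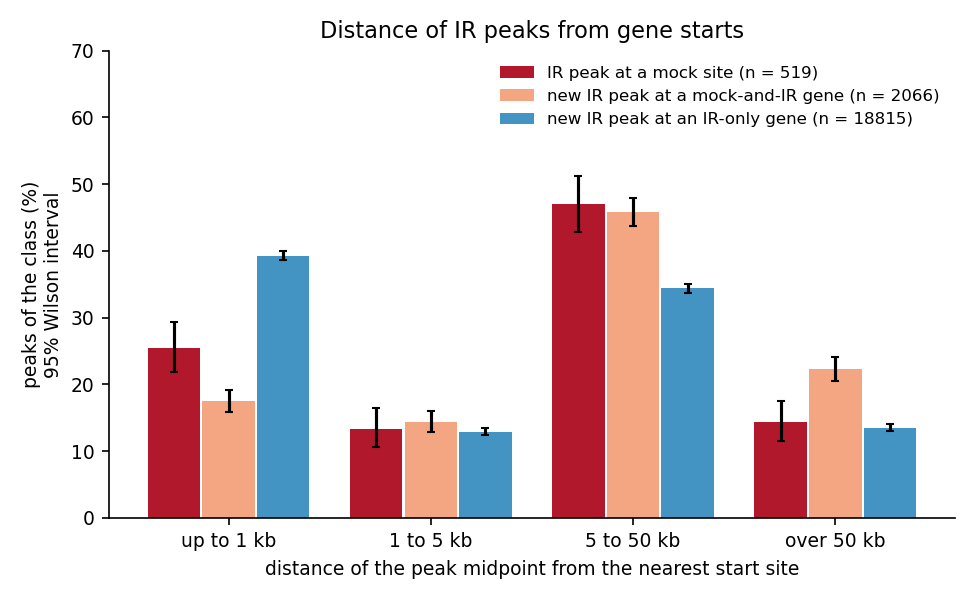
Share of IR peaks (%, vertical axis, with 95% Wilson intervals) in 4 classes of distance from the nearest start site (horizontal axis), for peaks at a mock site, new peaks at genes in mock and IR, and new peaks at genes in IR only. New peaks at genes in IR only are the class with the most peaks up to 1 kb, 39.3%, and peaks at a mock site have 47.0% between 5 and 50 kb.

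The p53 element divided these sites again. An unsplit element, 2 decamers without a spacer and at most 3 mismatches, lay within 300 bp of the midpoint of 33.1% of IR peaks at a mock site (29.2 to 37.3%), where 2.31% of windows moved by 10 kb had one. It lay in 15.3% of new IR peaks at genes in IR only (14.8 to 15.9%, moved 3.22%) and in 11.1% of new IR peaks at genes in mock and IR (9.85 to 12.6%, moved 4.36%). These 3 sets were not matched for peak height, with median values of 78.5, 19.2 and 17.6. New peaks beyond 5 kb ranked 501 to 1000 (median 119) had a share of 68.5%. Mock-site peaks had lower shares at a similar median (128), 37.7% at 5 to 50 kb and 39.2% over 50 kb. A similar median does not match the spread of values. The new peaks came from 1 rank bin, whereas mock-site peaks of all distances occurred in every bin, with 71 at ranks 10001 to 21400. An element more than 300 bp from the midpoint of a wide peak was also not counted. At genes in IR only the share went with distance from the start. It was 4.35% up to 1 kb (3.9 to 4.84%, moved 3.01%), 15.7% between 1 and 5 kb, 21.0% between 5 and 50 kb and 32.8% beyond 50 kb (31.0 to 34.6%, moved 3.27%). The GC content of the windows fell as the element share rose. Its mean was 59.6% ± 7.74 (SD over 7386 windows) up to 1 kb and 46.4% ± 5.56 (SD over 2535 windows) beyond 50 kb. The part of GC content in the element share was not tested.

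Among new sites, the element share fell with rank. It was found in 75% of new IR peaks ranked 1 to 100 (56.6 to 87.3%, 21 of 28), 76.5% of those ranked 101 to 500 (71.1 to 81.1%) and 64.9% of those ranked 501 to 1000 (60.4 to 69.2%). The share then fell to 32.0% for ranks 1001 to 2500 and 9.99% for ranks 10001 to 21400 (9.45 to 10.6%, moved 3.33%). Promoter and distal sites parted along this scale. Beyond 5 kb the share was 79.9% at ranks 101 to 500 and 14.8% in the last bin, whereas up to 1 kb it was 40.9% (9 of 22) and 3.46%, the last close to the 3.14% of moved windows. Elements with a spacer of 1 to 15 bases and at most 2 mismatches were counted only in windows without an unsplit element. Over all windows, they lay in 10.1% of new peaks of genes in IR only and in 10.9% of moved windows. An unsplit element barred 15.3% of the former and 3.22% of the latter from this count, so the 2 shares cannot be compared directly.

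**Figure D3:**
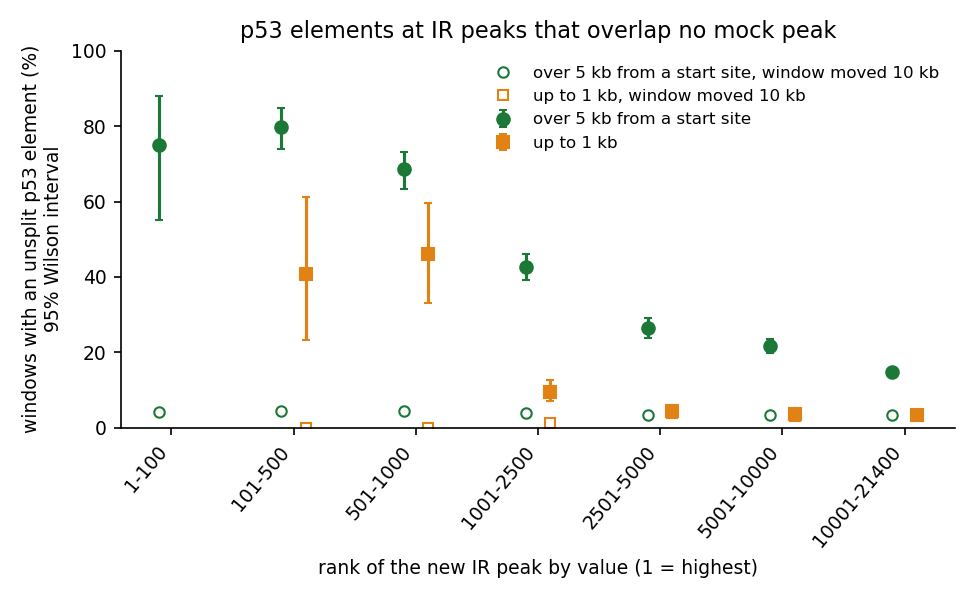
Share of new IR peaks (%, vertical axis, with 95% Wilson intervals) with an unsplit p53 element within 300 bp of the midpoint, by rank (horizontal axis), for peaks over 5 kb from a start site and up to 1 kb from one. Open symbols are the same windows moved by 10 kb, and no value is drawn up to 1 kb for ranks 1 to 100, where there was no new peak. Beyond 5 kb the share falls from 79.9% at ranks 101 to 500 to 14.8% in the last bin.

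Other short motifs were counted within 150 bp of the midpoint on both strands, with no statement that a match is a bound site. At new IR peaks up to 1 kb from a start, the ETS site CCGGAAG was present in 23.0% (22.1 to 23.9%), against 11.3% of windows centred on all protein-coding starts. The GC box GGGCGG was present in 56.5% against 45.8%, the E-box CACGTG in 11.2% against 7.30% and the CRE TGACGTC in 6.09% against 3.89%. The windows at starts were not matched to the peaks for GC content or promoter activity, and the part of either in these differences was not tested. The E-box reads the same on both strands, and matches of different words may overlap. The NF-Y box CCAAT was in 37.1% of these windows against 35.8%, but in 47.0% of the 132 IR peaks at a mock site up to 1 kb (38.7 to 55.4%), where the GC box was in 32.6% and the ETS site in 9.09%. Beyond 5 kb, the RUNX site TGTGGT was in 31.5% of new IR peaks (moved 22.6%) and 35.5% of IR peaks at a mock site (moved 18.9%), and the AP-1 site TGANTCA in 14.1% (moved 8.72%) and 17.0% (moved 8.81%). The shares at all protein-coding starts were 15.2% for the RUNX site and 6.0% for the AP-1 site. The interferon-type word GAAANNG was in 61.8% of new IR peaks beyond 5 kb, 55.1% of moved windows and 48.6% of starts.

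Canonical p53 targets were present before and after irradiation in unequal shares. Of 36 such genes, 11 had a peak in mock and IR, 30.6% against 2.23% of all genes. A further 21 had a peak in IR only, 58.3% against 42.7%, and 4 had none, among them Ddb2, Perp and Dram1. The highest IR peak was among the first 1000 for 17 of the 32 with a peak, 53.1% against 8.86% over all genes with an IR peak. It held an unsplit element in 13 of 32, or 40.6% against 20.5%.

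The targets in mock and IR include genes of arrest, apoptosis and p53 regulation. Cdkn1a, the CDK inhibitor p21, had 3 mock peaks (highest 44.4) and 6 IR peaks, the highest of which was the first of the whole list (621), at 122 bp from a start. The apoptotic gene Bax had 51.4 in mock and 462 in IR (rank 63). Zmat3, an RNA-binding tumour suppressor, had 29.8 and 474 (rank 54), the nuclease gene Aen 46.1 and 447 (rank 73), and the cyclin gene Ccng1 27.9 and 437 (rank 81). Phlda3, an inhibitor of Akt, had 20.9 and 394 (rank 97), Trp53inp1 had 47.9 and 363 (rank 124) and Mdm2 had 24.2 and 297 (rank 189), the IR peak lying -7020 bp from its start. Sesn2, a stress-induced inhibitor of mTOR signalling, and Btg2, an antiproliferative gene, were low in mock, at 10.8 and 9.32, and had 289 (rank 202) and 277 (rank 225) in IR.

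Targets with a peak in IR only ran from the top of the IR list to its lower part. Pmaip1, which encodes the pro-apoptotic protein Noxa, had 9 IR peaks, the highest 392 (rank 99) at 11235 bp. Ddit4, an inhibitor of mTOR signalling, had 6, the highest 370 (rank 119) at 3406 bp. Gtse1 had 201 (rank 361), the excision repair nuclease gene Ercc5 163 (rank 494) and the death receptor gene Fas 130 (rank 676) in an intron at 1741 bp. Further down were Ppm1d, a phosphatase that switches off p53 (47.3, rank 2990), the growth arrest gene Gadd45a (37.2, rank 4400), the damage sensor Xpc (36.0, rank 4656), Sesn1 (26.1, rank 7411), Apaf1, the core of the apoptosome (18.4, rank 11177), and Rrm2b, a ribonucleotide reductase subunit (16.4, rank 12415). A peak in the IR list therefore covered values from 621 to 13.9 within a single set of targets.

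**Figure D4:**
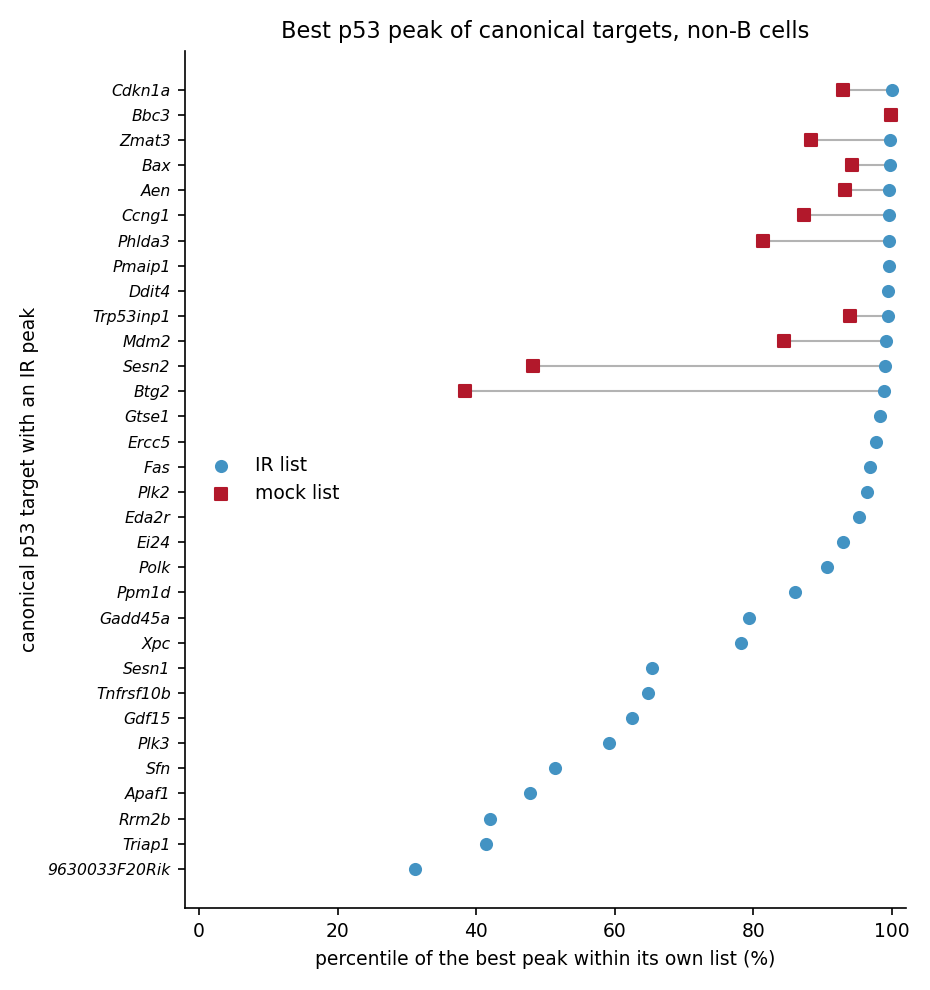
Percentile of the highest peak of each canonical p53 target within its own list (%, horizontal axis), for the 32 of 36 genes with an IR peak (vertical axis). Squares are the mock list, circles the IR list, and a gene without a square had no mock peak. The 11 genes with a mock peak lie at IR ranks 1 to 225, and genes in IR only run down to 9630033F20Rik, with a value of 13.9.

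Of 18 genes of p53 regulation and of the p53 family, 3 had a peak in mock and IR (Mdm2, Ccng1 and Aen), 16.7% against 2.23% of all genes, and 13 in IR only, 72.2% against 42.7%. Mdm4 was the highest of the 13 and was described above. Wrap53, which shares its locus with Trp53, had 194 (rank 389) at 440 bp, and Rchy1, which encodes the ubiquitin ligase Pirh2, had 155 (rank 533) at 265 bp. Trp73, a p53 family member, had 82.7 (rank 1205) at -8675 bp, while Trp53 itself had 26.8 (rank 7083). Trp63 and Trp53bp2 had no peak.

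Apoptosis genes of opposite roles shared each class. In the Bcl2 family, 4 of 23 genes had a peak in mock and IR (Bax, Bbc3, Bcl2l11 and Mcl1), 17.4% against 2.23% of all genes. A further 11 were in IR only (47.8%, near the 42.7% of all genes) and 8 had none. Bcl2l11, which encodes the pro-apoptotic protein Bim, had 20.1 in mock and 432 in IR (rank 83), with 13 IR peaks against 1 in mock. The survival gene Mcl1 had 6.99 in mock and 64.5 in IR (rank 1798). The survival genes Bcl2l1 (73.5, rank 1467) and Bcl2 (37.1, rank 4479, with 16 peaks) had IR peaks only. Among caspases and apoptosome genes, 15 of 25 were in IR only (60.0%, interval 40.7 to 76.6%, which includes the 42.7% of all genes). Another 2 were in mock and IR, the inhibitor Xiap (15 in mock, 244 in IR, rank 274, at -41562 bp) and the death adaptor Fadd (10.4 and 43.9). The survivin gene Birc5 (226, rank 306) and Birc3 (107, rank 853) were the highest of the 15.

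Of the 18 TNF ligand genes, 3 had a peak in mock and IR, 7 in IR only (38.9%, near the 42.7% of all genes) and 8 none (Tnfsf9, Tnfsf12, Tnfsf13, Tnfsf13b, Tnfsf14, Tnfsf15, Cd70 and Eda). Any IR peak was present at 55.6% of them against 45.0% of all genes. Tnfsf8, the CD30 ligand gene, had 63.2 in mock and 607 in IR, rank 2 of all IR peaks, with 9 IR peaks against 3 in mock. Tnfsf4, the OX40 ligand gene, had 13.9 and 452 (rank 70), Tnfsf18 had 112 (rank 807) in IR only, and Lta had 10.8 and 59.9. TNF receptor genes were in IR only in 17 of 28 cases (60.7%, interval 42.4 to 76.4%, which includes the 42.7% of all genes). In mock and IR there was 1, Tnfrsf21 (10.8 and 75.5). The highest of the 17 were Fas, Tnfrsf17 (97.2, rank 966), Eda2r (93.8, rank 1021) and Tnfrsf8 (84.8, rank 1170), the last being the CD30 receptor gene.

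Of 37 cyclin, CDK and CDK inhibitor genes, 4 were in mock and IR (Cdkn1a, Ccng1, Cdk8 and Cdkn1b). A further 24 were in IR only (64.9% against 42.7% of all genes). Cdkn2b, a CDK inhibitor gene, had 253 (rank 261) in IR only, and Cdk9, the kinase of the elongation factor P-TEFb, had 130 (rank 679). Of 13 E2F and pocket protein genes, 7 were in IR only (53.8%, interval 29.1 to 76.8%, which includes the 42.7% of all genes). In mock and IR there was 1, the pocket protein gene Rbl2 (65.9 in mock, 527 in IR, rank 28). The next in rank were E2f3 (55.9, rank 2235), Rb1 (53.3, rank 2448, with 7 peaks) and Tfdp2 (43.9, rank 3406), and E2f1, E2f5, E2f6, E2f7 and Tfdp1 had none. Myc had 3 mock peaks (highest 20.1) and 20 IR peaks, the highest 436 (rank 82) at 51842 bp, and Mycn had 27.9 in mock and 33.5 in IR. Of the 12 genes of the Myc and Max network, 8 were in IR only (66.7%, interval 39.1 to 86.2%, which also includes 42.7%). These were led by the Myc antagonist Mxi1 (224, rank 310) and by Mnt (46.0, rank 3120), and Mxd1 and Mxd3 had no peak.

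DNA repair genes were gained in large shares, at modest rank and close to their starts. Of 34 genes of double-strand break signalling and repair, 28 had a peak in IR only (82.4%, interval 66.5 to 91.7%, against 42.7%), 1 in mock and IR and 5 none. The highest IR peak lay up to 1 kb from a start in 23 of the 29 genes with one, or 79.3%, against 50.9% over all genes with an IR peak, and held an unsplit element in 3 of 29, or 10.3% against 20.5%. Only Wrn (137, rank 618, at 187917 bp) and Rad51l1 (118, rank 756, at 332832 bp, with 9.08 in mock) ranked among the first 1000, both far from the start. Next were Lig4 (53.3), the ligase of end joining, Nbn (52.9), of the break-sensing MRN complex, and Xrcc5 (52.9), which encodes Ku80. Excision repair, translesion and nucleotide supply genes had 18 of 24 in IR only (75%), led by Rrm1 (233, rank 297), Ercc5, Ercc3 (76.5, rank 1389) and Rad18 (70.5, rank 1579), and Fanconi anaemia genes 10 of 13 (76.9%), led by Fancl (79.1), Slx4 (72.0), Fancc (36.0) and Fan1 (33.6), with none at Fance, Fancf and Fancg.

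Genes that restrain PI3K and mTOR signalling had 3 of 24 in mock and IR and 16 in IR only (66.7% against 42.7% of all genes). Among the highest were Phlda3, Ddit4 and Sesn2, with the values given above for p53 targets. Autophagy and lysosome genes had 25 of 34 in IR only (73.5%), led by Ulk1 (177, rank 444), Atg7 (117, rank 772), Vmp1 (92.8) and Atg16l1 (90.6), 0 in mock and IR, and 1 in mock only, Wipi1 (8.00).

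Peaks report binding and not expression, so the lists of cell type genes cannot check which cells the libraries held. Of 38 T cell genes, 8 had a peak in mock and IR (21.1% against 2.23%) and 25 in IR only (65.8% against 42.7%), with 201 IR peaks in all. The 8 include Cd3d, Cd2, Lcp2, Themis, Ets1, Runx1 and Runx3. Runx1, a factor of haematopoietic and T cell development, had 7.93 in mock and 177 in IR (rank 445) at -169805 bp, Bcl11b 144 (rank 581) in IR only, Themis 10.8 and 140 (rank 601) and Tcf7 90.6 (rank 1083). The highest IR peak lay up to 1 kb from a start in 6 of the 33 T cell genes with one, or 18.2% against 50.9% over all genes.

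All 20 B cell genes had an IR peak in the cells left after depletion of B cells. Of these, 18 were in IR only (90.0%, interval 69.9 to 97.2%, against 42.7% of all genes). The other 2 were in mock and IR, Pax5 (16.2 in mock, 47.5 in IR) and Cr2 (24.4 and 26.2). The highest was Cd22 (87.6, rank 1119), followed by Ms4a1 (82.0, rank 1225), Bank1 (77.0, rank 1369) and Blnk (73.5, rank 1462), and none ranked among the first 1000. An unsplit element was present at the highest peak of 1 of the 20, or 5% against 20.5%. The IR list of B cells also had a peak at all 20, and the part of residual B cells in the non-B peaks was not tested.

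NK cell genes had 2 of 16 in mock and IR, Cd244 (192 in IR, rank 399) and Gzmb (12.1), and 7 in IR only (43.8%, near the 42.7% of all genes), led by Nkg7 (77.7, rank 1355) and Tyrobp (57.5, rank 2136). Ncr1, Klrk1, Klre1, Klra8, Klra4, Gzma and Prf1 had no peak. Of 24 myeloid genes, 12 had a peak in IR only (50% against 42.7%) and 12 none, led by Emr1 (41.9, rank 3733), Irf8 (34.7), Fcgr3 (28.6) and Lyz1 (21.2). Of 14 erythroid genes, 3 had one (21.4%, interval 7.57 to 47.6%, which includes 42.7%), among them Ermap (25.3) and Tfrc (19.7). The other 11 had none (Gata1, Klf1, Hbb-b1, Hba-a1, Hba-a2, Alas2, Epor, Tal1, Slc4a1, Epb4.2 and Nfe2). With promoter peaks alone the myeloid share was 8.33%, the NK share 25% and the chemokine receptor share 31.6%, each then below the 32.3% of all genes.

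Immune signalling genes were gained broadly. Of 42 genes of Toll-like receptor, interferon and NF-kB signalling, 34 were in IR only and 2 in mock and IR. The IR-only share was 81.0% (interval 66.7 to 90.0%) against 42.7% of all genes. The NF-kB inhibitor gene Tnfaip3 had 3 mock peaks (highest 17.5) and 14 IR peaks, the highest 273 (rank 229) at -167323 bp. Ikbkg, the regulatory subunit of the IKK complex, had 224 (rank 311), and the receptor genes Tlr4 and Tlr1 had 90.6 (rank 1089) and 86.3 (rank 1146). Irf4, the other gene in mock and IR, had 5.41 and 30.1. Cytokine receptor genes had 26 of 33 in IR only (78.8%) and 1 in mock and IR, Il21r (7.2 in mock, 238 in IR, rank 286, with 13 IR peaks), and their highest were followed by Il6st (190, rank 403), Il10rb (87.7) and Il6ra (68.1).

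Chemokine receptor genes had 12 of 19 in IR only (63.2%, interval 41.0 to 80.9%, which includes the 42.7% of all genes) and 2 in mock and IR. Ccr4, a receptor of helper and regulatory T cells, had 21.5 in mock and 563 in IR (rank 12) at -3969 bp, and Cxcr5 had 9.08 and 55.9. Cxcr4, the receptor that retains cells in bone marrow, had 16 IR peaks and none in mock, the highest 396 (rank 95) at -175527 bp. The next were Ccr7 (71.5, rank 1539) and Ccr6 (69.3, rank 1613), and Ccr1, Ccr10, Cxcr1, Cxcr2 and Cxcr3 had no peak. Of 10 Src family and related kinase genes, 3 were in mock and IR, Fyn (46.7 and 543, rank 24), Lyn (12.2 and 86.3) and Csk (6.70 and 130). A further 6 were in IR only (60.0%, interval 31.3 to 83.2%, which includes the 42.7% of all genes). These were led by Fgr (41.9, rank 3706), and Frk had no peak.

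Genes of basic cell machinery were gained in large shares. Of 83 cytosolic ribosomal protein genes, 70 had a peak in IR only (84.3%, interval 75 to 90.6%, against 42.7% of all genes) and 5 in mock and IR. Their median territory was 17.2 kb against 45.5 kb over all genes. The IR-only share was 81.5% for 27 RNA polymerase subunit genes, 81.4% for 43 Nduf genes, mostly of respiratory complex I, and 80.0% for 50 proteasome genes. It was 76.5% for 34 aminoacyl-tRNA synthetases, 74.1% for 58 Eif genes, mostly translation initiation factors, and 68.5% for 73 mitochondrial ribosomal proteins. These 2 sets were taken by symbol. The Eif genes include the Eif2ak kinases and the Eif2c and Eif4ebp genes, and the Nduf genes include the Ndufaf assembly factors. In the 7 lists of this paragraph so far, the highest IR peak lay up to 1 kb from a start in 80.0% (Eif genes) to 90.9% (RNA polymerase subunits) of genes with a peak. It held an unsplit element in 3.7% (aminoacyl-tRNA synthetases) to 10.7% (cytosolic ribosomal proteins). Replication-dependent histone genes, with a median territory of 6.72 kb, had 39 of 67 in IR only (58.2%, interval 46.3 to 69.3%, against 42.7%). The highest were Hist1h2bp (153, rank 539) in IR only and Hist1h4h (292, rank 199) in mock and IR.

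Few of these genes ranked high, and several of those that did had their peak far from the gene. Rps27l, which encodes a ribosomal protein paralogue, had 13.7 in mock and 390 in IR (rank 102) at 164 bp. Rps19 had 56.5 and 388 (rank 103), Rplp1 had 14.9 and 330 (rank 149) but at 247061 bp, and Rpl24 had 86.3 and 194 (rank 385). Mrpl45 had 30.5 and 511 (rank 33) and Eif2ak3, a kinase of the unfolded protein response, 16.6 and 467 (rank 60). The highest values in the remaining lists were 76.5 for Psma3 and 57.2 for Psmb9 of the proteasome (a symbol with 2 gene identifiers, the other without a peak). Among Nduf genes they were 69.8 for Ndufa4, at 363944 bp from its start, and 67.5 for Ndufb5. They were 54.6 for Polr2e and 46.3 for Polr2j of the polymerases, and 95.2 for Mars2 and 73.5 for Cars of the synthetases. When the IR list was reduced to 712 peaks, 1.82% of all genes were in IR only. No IR-only gene was then left in the lists of proteasome, Nduf, polymerase, Eif, synthetase and B cell genes. Other lists left without one included those of Fanconi anaemia, E2F and pocket protein, Src family, NK cell and myeloid genes. The share was 1.20% for cytosolic ribosomal proteins, 2.94% for double-strand break genes and 2.38% for Toll-like receptor, interferon and NF-kB genes. For canonical p53 targets it was 13.9% and for p53 regulators 16.7%.

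Gene families of other tissues were seldom gained. Of 1113 olfactory receptor genes, 33 were in IR only (2.96%, interval 2.12 to 4.13%, against 42.7% of all genes) and 4 in mock and IR. Of 328 vomeronasal receptor genes, 18 were in IR only (5.49%). Keratin genes had 5 of 50 (10%) and Hox genes 5 of 40 (12.5%). The few peaks of the receptor families lay far from starts, with 3 of 37 olfactory and 0 of 18 vomeronasal genes having their highest peak up to 1 kb, and held an unsplit element more often than average, in 16 of 37 (43.2%) and 10 of 18 (55.6%) against 20.5%. The highest were Olfr543 (218, rank 328), Olfr545 (5.86 in mock, 130 in IR) and Vmn1r36 (58.7, rank 2090).

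**Figure D5:**
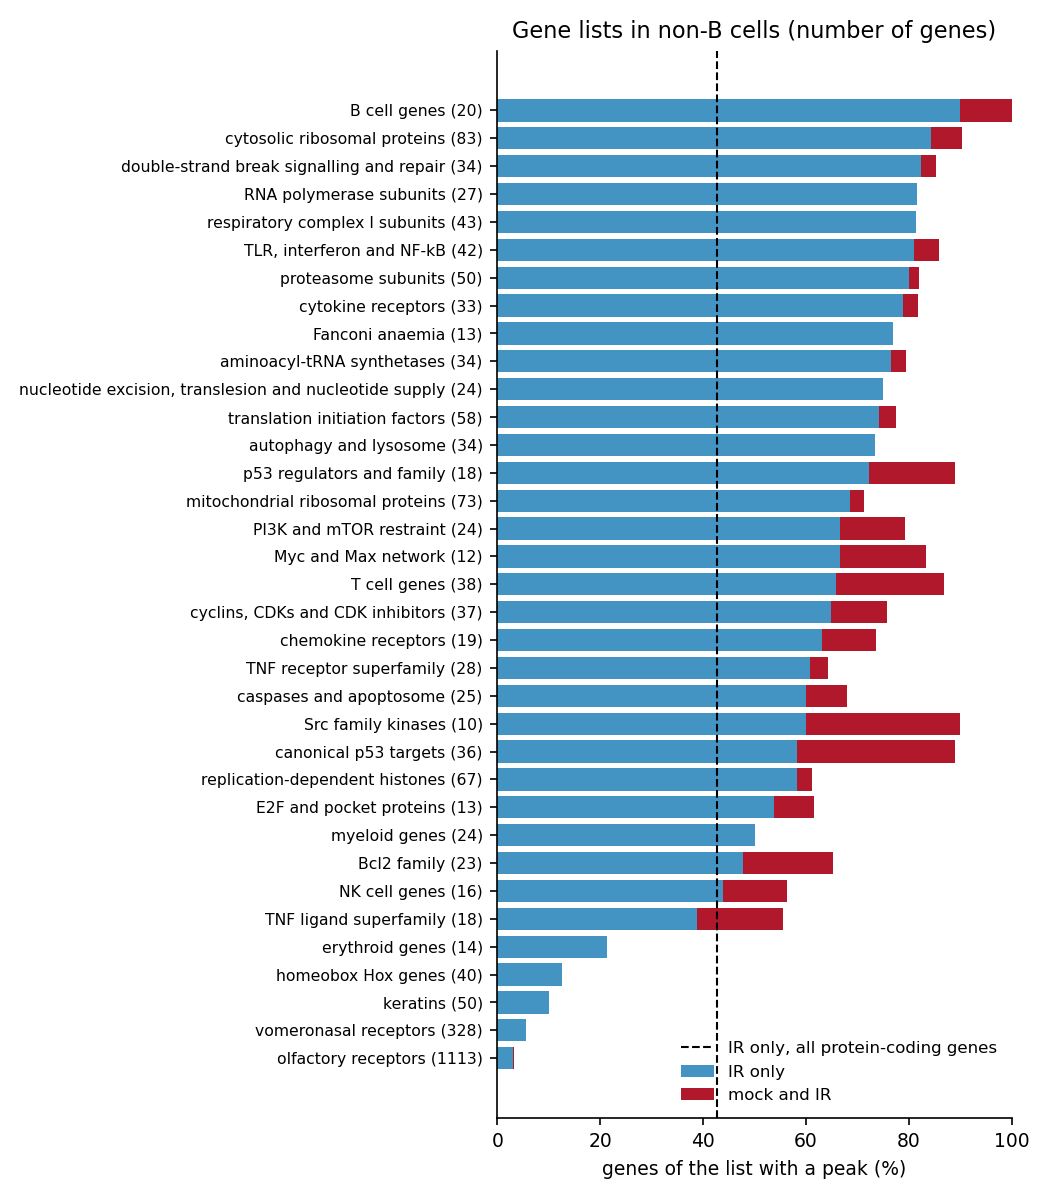
Share of the genes of each list (%, horizontal axis) with a peak in IR only (blue) and in mock and IR (red), with the number of genes in brackets. The dashed line marks 42.7%, the IR-only share of all protein-coding genes, and the lists run from 90.0% for B cell genes to 2.96% for olfactory receptors.

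Genes were also grouped by symbol without a hand-made list, by the letters before the first digit, which gave 108 families of at least 20 genes and 6515 genes in all. In 75 of the 108 the IR-only share was above that of all genes. The 10 highest were Cep (centrosomal proteins, 85.0%), Polr (81.5%), Med (Mediator subunits, 80.6%), Rbm (RNA-binding motif proteins, 80.0%), Tbc (78.6%), Gtf (general transcription factors, 78.3%), Mettl (methyltransferase-like, 78.3%), Ap (76.9%), Cdc (76.5%) and Bcl (75%). The 6 lowest were Rhox, Pcdhb and Ces, with 0 genes in IR only, Krtap (2.17%), Olfr (2.96%) and Klk (3.7%). Of these lowest families, Pcdhb, Krtap, Rhox and Klk also had small territories, with medians of 10.9, 11.8, 17.0 and 15.9 kb. Grouped by symbol, Rpl had 55 of 87 genes in IR only (63.2%) and Rps 33 of 57 (57.9%). Both shares are below the 84.3% of the list of 83 cytosolic ribosomal protein genes, which does not hold the same set of symbols.

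The gene classes were last set beside the other lists. An IR peak in B cells was assigned to 97.8% of the genes in mock and IR, 92.5% of those in IR only and 9.58% of those with no peak in non-B cells, against 47.0% of all genes. A mock peak in B cells was assigned to 80.6% of genes in mock and IR and 5.83% of those in IR only (557 of 9561). Of the 19 genes in mock only, 12 had a B cells mock peak and 5 a B cells IR peak. In the list from irradiated Trp53-/- spleen, a peak overlapped 13 mock and 9 IR peaks of non-B cells, which belonged to 10 genes in mock and IR and to no gene in the other classes.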

How the data were processed

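p53 ChIP-seq reads were aligned by the authors to mm9 with BWA 0.6.2 (submitters' processing notes), peaks were called with MACS, and 1 list per library was deposited. The fifth column was taken, from its values and range, to be −log10 of a peak p-value computed by the authors. It had a minimum of 5.08 in mock and 5.27 in IR, below the value of 8 that the stated calling limit would give. The lists give no read totals, so depth is unknown. The Input library was not analysed here.

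Coordinates count from 1. Peaks overlapped if they shared at least 1 bp. All 712 mock and 21400 IR peaks were assigned by midpoint to the nearest start of any transcript of a protein-coding gene. Ties in value were ordered by width. A symbol carried by several gene identifiers was counted once for each. The p53 consensus was scored over 2 decamers of 10 bases, each needing its core C (position 4) and core G (position 7). Windows moved by 10 kb gave the background. There was 1 library per group, so no p-value was computed.

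The comparison, the gene lists and the rules were chosen with earlier results of these data known. Named genes were the 12 in IR only with the highest IR value, the 12 in mock and IR and the 8 in mock only with the highest mock value, the 6 with most IR peaks in all and in IR only, the 4 moving most in percentile each way, up to 4 leading members of each list, members in mock only, members without a peak in lists of at most 20 genes, and the 10 highest and 6 lowest families. Gm and Rik models were skipped in these rankings. Further members of the lists, and the 15 elements printed out of those found, were chosen after their values were seen. Of the listed symbols, 5 matched no gene. Sequences on chromosome 18 and a few genes that the rule names are not reported here. The assignment, overlap and element steps were tested on simulated data. Alternatives are given in the closing section. Tools were samtools 1.23.1 and pysam 0.24.0 for sequence, pandas 2.3.3 and numpy 2.4.6 under Python 3.11.15 for counts, and matplotlib 3.10.9 for plots.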

Additional observations from a re-analysis of the deposited data

Results flagged for a closer look

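Opposite gene classes in the cell fractions were rare. A peak was assigned in mock only in non-B cells and in IR only in B cells for 2 genes, Gm9797 (17.4 in non-B mock, 17.3 in B IR) and Pou4f1 (25.6 and 18.4). At both genes the non-B mock peak overlapped no B cells IR peak, so the paired values belong to different sites with the same nearest gene. The reverse, mock only in B cells and IR only in non-B cells, held for 4 genes. These were Atp5b (10.7 in B mock, 13.3 in non-B IR), Klhl35 (7.82 and 9.27), Nck1 (5.31 and 13.6) and Vps54 (6.4 and 17.3). The IR peaks of the last 4 ranked between 11812 and 19205 of the non-B list. With 1 library per group the difference between the fractions was not tested.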

How the results depend on the processing

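Of 41 recomputed values of the class counts, of the share of mock genes with an IR peak and of the element shares, 27 stayed close to the reported value and 14 did not. With promoter peaks only, 181 genes were in mock and IR and 10 in mock only. With the IR list at the length of the mock list, the counts were 242 in mock and IR, 408 in IR only and 276 in mock only, and the share of mock genes with an IR peak was 46.7%, since fewer IR peaks were kept. The unsplit element share at IR peaks at a mock site, at new IR peaks of genes in mock and IR and at new IR peaks of genes in IR only was 27.6, 6.73 and 10.4% with at most 2 mismatches and 16.8, 7.84 and 11.9% with 100 bp flanks. With at most 4 mismatches the latter 2 were 18.3 and 22.7%, against 11.6 and 10.2% in moved windows. Peaks within 50 kb, gene starts alone, genes of all types, a minimum value of 8, removal of peaks shared with the Trp53-/- list, and autosomes and X alone left every class count within 1.5 times the reported one. All 35 gene lists stayed on their side of the share of all genes in 5 of the 8 alternatives, 34 with peaks within 50 kb, 32 with promoter peaks only and 22 with the shorter IR list. Motif shares recomputed with 75 bp flanks were on the same side of moved windows for 37 of 40. No paired analysis was possible because the libraries are single, so none could be left out either.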
